A study of Mus musculus with 6 samples.

Results

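The 10 genes described here are members of the antibody apparatus: the heavy chain constant region genes Ighm, Ighd, Ighg3, Ighg1, Ighg2b, Ighg2c and Igha, the light chain constant region genes Igkc and Iglc1, and Jchain. They were taken by symbol through the Ensembl identifier, and all 10 members were found once each among the 30409 gene identifiers measured. RNA was sequenced from mouse bone marrow cells of strain C57BL/6 sorted as Lineage−Sca1+cKit+CD34−Flk2−, the surface pattern of long-term haematopoietic stem cells (LT-HSCs). The 4 libraries were wild type at steady state, Twist1 cKO (conditional knockout) at steady state, wild type 12 days after irradiation, and Twist1 cKO 12 days after irradiation, with 1 library in each group. The driver of the knockout, the radiation dose, and the age and number of the mice are not stated in the labels. The product of Twist1 is a transcription factor of the basic helix-loop-helix class. The design asks how its loss alters RNA in these cells with and without irradiation.

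An antibody is built from heavy and light chains, each joining a variable part to a constant region. A maturing B cell first uses the mu and delta constant regions (IgM and IgD) and can later switch by DNA deletion to a gamma, epsilon or alpha region (IgG, IgE, IgA), while plasma cells secrete the product in bulk. The J chain, encoded by Jchain, links IgM and IgA into the polymers that plasma cells export. Constant region genes can also be transcribed before switching, and a value per gene does not separate these transcripts, or membrane from secreted forms.

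The values are FPKM, reads scaled to the length of the gene model and to the size of the library, as made by the authors, so levels of different genes are compared per length. The FPKM of a library are multiples of what 1 read is worth, from which whole reads were recovered. They summed to 25099656 (wild type) and 22126370 (cKO) in the unirradiated, steady-state libraries and to 24742752 and 20345461 in the irradiated ones, and pairs of values below keep that order, wild type first. The library sizes behind the FPKM were 26031985, 25239648, 22146433 and 23450734, so the recovered sum lay above that size in irradiated wild type and below it in the other libraries, and shares of reads below are of the recovered sums. Intervals are exact 95% intervals from these reads (Clopper-Pearson for levels and shares, conditional binomial for folds) and cover counting error only. Each group being 1 library, differences could not be set against replicates, and no test between groups or p-value is given. Comparisons used genes whose higher value was 5 FPKM or above (called kept below), and a gene was called where it differed by 2-fold or more on the log2(FPKM + 1) scale. The 4 comparisons share libraries, so they are not independent of one another.

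Several facts of the libraries touch all that follows. Twist1 itself had 6 and 2 reads at steady state and 5 and 0 reads after irradiation, too few to check the labels. The stem cell genes Procr, a surface receptor gene (51.3 and 66.1 FPKM), and Hlf, a transcription factor gene (17.4 and 17.7 FPKM), were present at steady state, but after irradiation Procr had 0.333 and 1.22 FPKM and Hlf 0.0608 and 0.102 FPKM. Of 7 LT-HSC markers, 5 reached 5 FPKM in both steady-state libraries, and 2 and 1 after irradiation. Among them Ly6a had 534 and 362 FPKM, then 89.1 and 256 FPKM, and Kit 20.1 and 27.6, then 8.52 and 4.98 FPKM. Cd34 and Flt3, listed as genes outside the sorting gate, were present at steady state. Cd34 had 18.4 and 29.2 FPKM, then 0.155 and 0.322 FPKM after irradiation. Flt3 had 6.26 and 9.32 FPKM, then 0.519 and 1.32 FPKM. The female-specific Xist had 8 and 7 reads at steady state and 398 and 241 reads after irradiation, and the Y-linked Ddx3y 1385 and 1624 reads against 6 and 2, so sex and irradiation cannot be told apart. In these bulk samples a smaller number of antibody-producing cells and less RNA per such cell cannot be told apart either.

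The members lie on 4 chromosomes (GRCm38, RefSeq annotation, which labels all but Jchain as constant regions). On chromosome 12 the heavy chain genes span 166.527 kb in the order in which switching can use them: Ighm (113418826 to 113422730), Ighd (113407535 to 113416324), Ighg3 (113357442 to 113361232), Ighg1 (113326541 to 113330523), Ighg2b (113304314 to 113307933), Ighg2c (113287389 to 113288932) and Igha (113256204 to 113260236). Igkc lies on chromosome 6 (70726435 to 70726754), Iglc1 on chromosome 16 (19061752 to 19062071) and the protein-coding Jchain on chromosome 5 (88519809 to 88527897). Values were deposited per gene over its whole gene model.

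Antibody transcripts were among the most abundant RNAs of these sorted cells. The 10 members together took 11.6% of all recovered reads in wild type and 7.75% in cKO without irradiation, and 2.28% and 7.76% after irradiation. Igkc, the kappa light chain constant region, was the gene with the highest FPKM in all 4 libraries. Ighm ranked 3 in both steady-state libraries and 35 and 16 after irradiation, whereas Igha went from rank 23 in both to 11 and 2. At the other end Ighd and Ighg1 had few reads: Ighd had between 15 and 133 reads, and Ighg1 between 10 and 15 reads in every library except the wild type at steady state. Within a library, neighbours in the order of FPKM differed beyond counting error except for Ighg3, Ighd and Ighg1 in irradiated wild type and Ighg3 and Ighd in irradiated cKO.

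The heavy chain make-up was dominated by IgM at steady state and by IgA after irradiation. Ighm, the mu constant region, made up 90.8% (90.8 to 90.9) of the summed heavy chain FPKM in wild type and 91.8% (91.7 to 91.8) in cKO without irradiation. After irradiation its share was 34.6% (34.4 to 34.8) and 22.6% (22.5 to 22.7). Igha, the alpha constant region of the antibody class exported at mucosal surfaces, made up 5.67% (5.64 to 5.70) and 7.16% (7.12 to 7.21) at steady state, but 63.7% (63.4 to 63.9) and 75.8% (75.7 to 75.9) after irradiation. The 4 gamma genes together held 3.49% and 1.04% without irradiation and 1.72% and 1.54% with it. These shares are ratios within a library and do not depend on how libraries are scaled to each other.

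**Figure D1:**
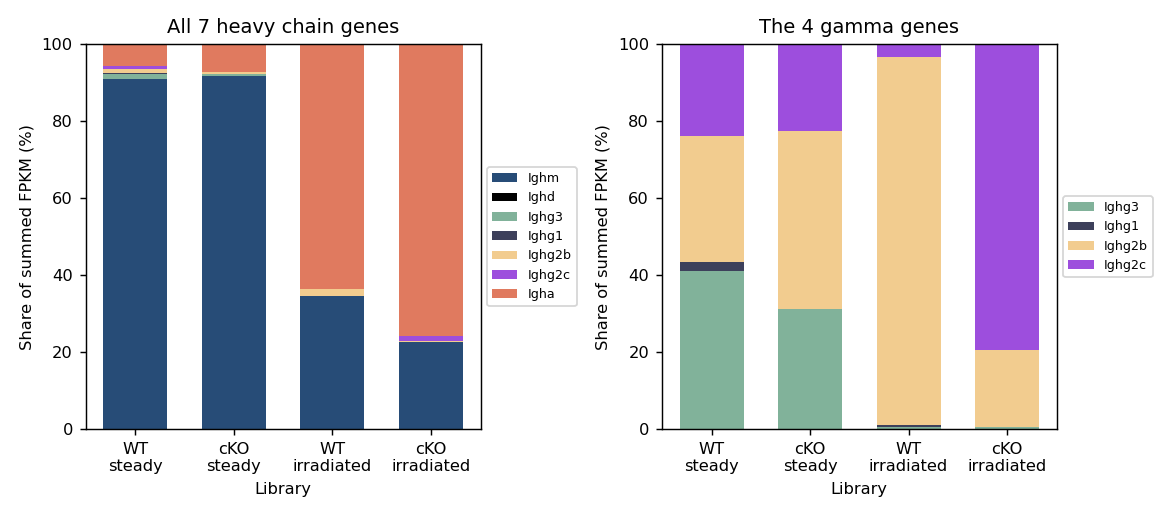
Share of summed FPKM (%) by library: on the left each of the 7 heavy chain constant region genes, on the right each of the 4 gamma genes within the gamma total. Ighm fills 90.8% and 91.8% of the steady-state bars and Igha 63.7% and 75.8% of the irradiated bars, and the main gamma gene differs between the irradiated libraries (Ighg2b in wild type, Ighg2c in cKO).

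Ighm had 26708 FPKM in wild type and 16527 FPKM in cKO without irradiation, and 1541 and 2699 FPKM after irradiation. Both irradiated libraries lay far below both steady-state ones: Ighm was 17.3-fold (17.2 to 17.5) lower after irradiation in wild type and 6.12-fold (6.09 to 6.16) lower in cKO. Igha had 1667 and 1290 FPKM in unirradiated cells, then 2833 and 9050 FPKM in irradiated cells. It went the other way from Ighm, being 1.70-fold (1.69 to 1.71) higher after irradiation in wild type and 7.02-fold (6.97 to 7.07) higher in cKO. For every 100 FPKM of Ighm the libraries held 6.24 and 7.80 FPKM of Igha in unirradiated cells, then 184 and 335 FPKM in irradiated cells.

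Ighd, the delta constant region that naive B cells express together with mu from the same primary transcript, was scarce throughout. It had 0.566 FPKM (0.376 to 0.818, 28 reads) in wild type and 2.77 FPKM (2.32 to 3.29, 133 reads) in cKO at steady state, and 0.356 FPKM (0.200 to 0.588) and 0.516 FPKM (0.327 to 0.775) after irradiation. Ighm therefore exceeded Ighd by a factor of 47179 in the wild-type steady-state library and of 5959 in the cKO one, and of 4322 and 5229 after irradiation. The steady-state cKO library was the highest of the 4 for Ighd, 4.90-fold (3.24 to 7.65) above wild type, while Ighm was lower there. Ighd stayed under 5 FPKM everywhere and was not kept in any comparison.

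The gamma genes encode the IgG subclasses, and each had its own pattern over the libraries. Ighg3 had 420 and 58.3 FPKM in unirradiated cells, then 0.501 and 0.867 FPKM in irradiated cells, with 12 and 22 reads in the irradiated libraries. Ighg1 had 24.9 FPKM in wild type at steady state but 0.153 FPKM in cKO, 0.261 FPKM in irradiated wild type and 0.181 FPKM in irradiated cKO. Ighg2b had 334 and 86.1 FPKM in unirradiated cells, then 73.3 and 36.6 FPKM in irradiated cells. All 3 were highest in the wild-type steady-state library, and Ighg3 and Ighg2b were lower after irradiation in both genotypes.

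Ighg2c, the gamma gene that C57BL/6 mice carry in place of Ighg2a, stood apart from them. It had 245 FPKM in wild type and 42.3 FPKM in cKO at steady state, 2.69 FPKM (79 reads) in irradiated wild type and 146 FPKM (4530 reads) in irradiated cKO. The irradiated wild-type library was thus the lowest and the irradiated cKO library the second highest. Within the gamma total, Ighg2b held 95.5% (94.6 to 96.3) in irradiated wild type and 19.96% (19.2 to 20.8) in irradiated cKO, and Ighg2c 3.51% (2.79 to 4.34) and 79.5% (78.6 to 80.3). At steady state the gamma total was spread over Ighg3 (41.0% and 31.2%), Ighg2b (32.6% and 46.1%) and Ighg2c (24.0% and 22.6%). These shares depend on the gene model lengths. By recovered reads, steady-state Ighg2b held 51.4% and 65.9%, Ighg3 26.1% and 18.0% and Ighg2c 18.7% and 16.0%, so the leading gene in wild type changed. In irradiated cKO Ighg2c held 66.0% of gamma reads, and in irradiated wild type Ighg2b held 97.6%. The gamma genes are similar in sequence, and how the counting divided reads among them was not tested, so their separate values are uncertain. Beside 4345 reads of Ighg2b, irradiated wild type had 79 of Ighg2c, and beside 2298 irradiated cKO had 4530.

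**Figure D2:**
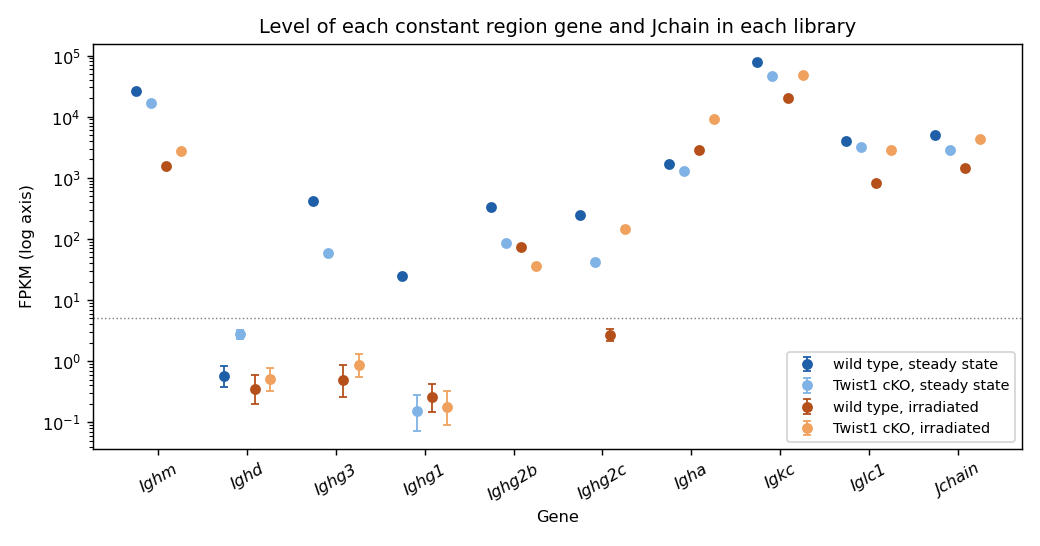
FPKM on a log axis for each gene in each library, with exact 95% counting intervals as bars (mostly smaller than the points) and the 5 FPKM minimum as a dotted line. Ighm separates the steady-state libraries (26708 and 16527 FPKM) from the irradiated ones (1541 and 2699 FPKM), Igha runs the other way, and Ighd stays under the line in all 4.

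The kappa light chain far outweighed lambda in all 4 libraries. Igkc had 77061 and 46140 FPKM in unirradiated cells, then 20479 and 48437 FPKM in irradiated cells, so the irradiated wild-type library was the low one and the 2 cKO libraries were close. Iglc1, which encodes the lambda 1 constant region, had 4019 and 3159 FPKM in unirradiated cells, then 828 and 2892 FPKM in irradiated cells. Its share of the Igkc and Iglc1 total was 4.96% (4.91 to 5.001) and 6.41% (6.35 to 6.47) at steady state and 3.89% (3.80 to 3.97) and 5.63% (5.57 to 5.70) after irradiation. In both conditions the cKO library had the larger Iglc1 share.

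The other lambda constant genes differed among themselves. Iglc2 had 1787 and 668 FPKM in unirradiated cells, then 473 and 186 FPKM in irradiated cells, and Iglc3 had 693 and 113 FPKM and then 17.3 and 144 FPKM. With all lambda genes counted, lambda made up 7.78% and 7.87% of light chain FPKM without irradiation and 6.05% and 6.24% with it, values that lie closer together between genotypes than the Iglc1 shares do. Iglc1 held 61.8% and 80.1% of the lambda total without irradiation and 62.8% and 89.8% with it. Iglc2 and Iglc3 are near-identical copies, so the division of reads between them is uncertain. Iglc4, a pseudogene in RefSeq, had at most 39 reads, and Ighe, the epsilon constant region, at most 4 reads. Between genotypes Iglc2 and Iglc3 were both called lower in cKO at steady state, beside 2.70% of all genes kept. After irradiation Iglc2 was called lower and Iglc3 higher, beside 1.04% and 4.47% of all genes kept.

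Jchain had 5063 and 2794 FPKM in unirradiated cells, then 1423 and 4264 FPKM in irradiated cells. From high to low the libraries stood in the order wild type at steady state, irradiated cKO, cKO at steady state and irradiated wild type, the order also seen for Igkc. Per 100 FPKM of heavy chain, Jchain had 17.2 (17.2 to 17.3) and 15.5 (15.4 to 15.6) FPKM at steady state and 32.0 (31.7 to 32.2) and 35.7 (35.6 to 35.9) FPKM after irradiation. Igkc per 100 FPKM of heavy chain was likewise higher after irradiation, at 460 and 406 against 262 and 256 FPKM. With Ighm in the sum, both irradiated libraries thus held more Igkc and Jchain transcript per heavy chain transcript than either steady-state library. The Igkc ratio turned when Ighm was left out of the heavy chain sum, to 2863 and 3119 without irradiation against 704 and 525 with it. The Jchain ratio was not computed without Ighm, but the levels give its direction. Jchain exceeded the other heavy chain genes together in both steady-state libraries and lay below Igha alone in both irradiated ones. The Jchain ratio thus turned as well. Jchain lay above Igha at steady state (5063 against 1667 FPKM in wild type, 2794 against 1290 in cKO). After irradiation it lay below Igha (1423 against 2833 FPKM in wild type, 4264 against 9050 in cKO).

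**Figure D3:**
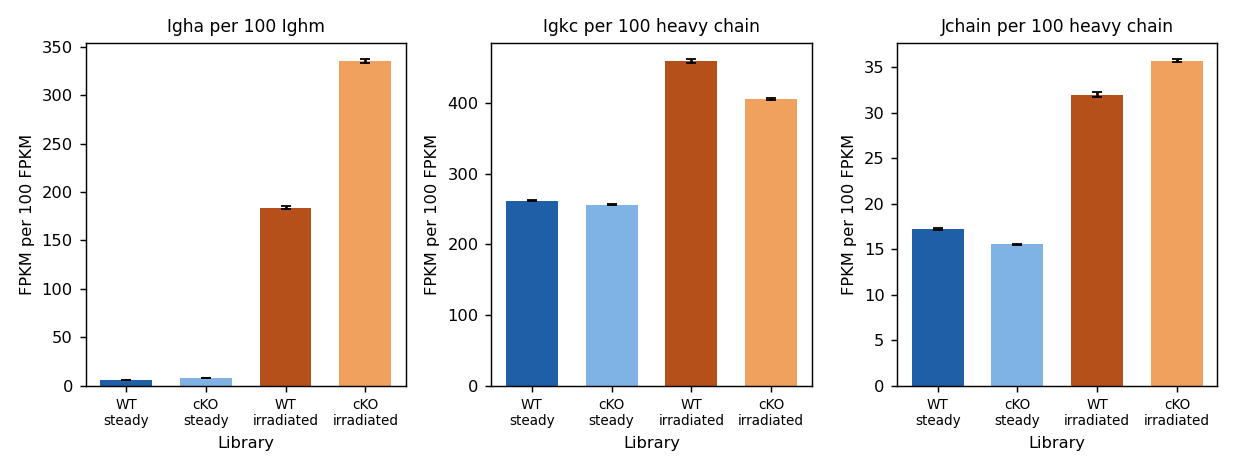
Ratios within each library, in FPKM per 100 FPKM, with exact 95% counting intervals as bars: Igha against Ighm, Igkc against the 7 heavy chain genes, and Jchain against the same genes. All 3 ratios are higher in both irradiated libraries than in both steady-state libraries (Jchain 32.0 and 35.7 against 17.2 and 15.5). The order of conditions turns for Igkc and Jchain when Ighm is left out of the heavy chain sum.

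The promoter window of Jchain is shown because it is the single window of a member in the RefSeq table used (GRCm38.p6), and because Twist1 belongs to the factor class that binds E-boxes (CANNTG). It covers chr5:88527848-88528147 on the minus strand, with the E-box letters in capitals:
Jchain: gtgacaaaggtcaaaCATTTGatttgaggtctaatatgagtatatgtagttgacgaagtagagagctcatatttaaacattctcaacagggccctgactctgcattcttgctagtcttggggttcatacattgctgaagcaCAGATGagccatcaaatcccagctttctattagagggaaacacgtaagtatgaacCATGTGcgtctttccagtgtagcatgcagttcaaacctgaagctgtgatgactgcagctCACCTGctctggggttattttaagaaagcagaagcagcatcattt
The window held 4 matches to CANNTG, which reads the same on both strands as a pattern, at 235, 109 and 54 bases before and 5 bases after the annotated start. At least 1 such match was present in 72.3% of 32851 promoter windows of the same length, and 4 or more in 6.49%. The octamer ATTTGCAT, searched on both strands and known from antibody variable region promoters, was not in this window and was in 1.74% of all windows. These matches describe letters and say nothing about binding.

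The first comparison set cKO against wild type at steady state. All members but Ighd were lower in the cKO library, and the folds of the 4 gamma genes exceeded those of the rest. Ighg3 was 7.21-fold (6.85 to 7.61) lower, Ighg2c 5.80-fold (5.48 to 6.14), Ighg2b 3.88-fold (3.77 to 3.99) and Ighg1 163-fold (88.4 to 341, from 1681 to 10 reads). Ighm was 1.62-fold (1.61 to 1.62) lower, Igkc 1.67-fold (1.66 to 1.68), Jchain 1.81-fold (1.80 to 1.82), Igha 1.29-fold (1.28 to 1.30) and Iglc1 1.27-fold (1.25 to 1.29). Of the 9 members kept, 4 were called lower, all of them gamma genes, and 0 higher. Among all 7157 genes kept, 2.70% were called lower and 0.643% higher. The median difference of the members kept was −0.86 on the log2 scale, beside 0.01 over all genes kept.

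After irradiation 6 members that were lower in cKO at steady state were higher in cKO, beyond counting error in both conditions. The share of all genes that did so was not counted, and of the 6 only Ighg2c was called in both conditions. Ighg2c was 54.2-fold (43.4 to 68.5) higher in the cKO library, Iglc1 3.49-fold (3.41 to 3.58), Igha 3.19-fold (3.18 to 3.21), Jchain 2.997-fold (2.97 to 3.02) and Igkc 2.37-fold (2.35 to 2.38). Ighm was 1.75-fold (1.74 to 1.77) higher, short of the 2-fold line. Ighg2b was the exception among the abundant members, at 36.6 against 73.3 FPKM, a difference of −0.98 that falls just short of the line. Of 7 members kept, 5 were called higher and 0 lower, beside 4.47% called higher and 1.04% called lower among all 6348 genes kept. Ighg3 (1.73-fold, 0.820 to 3.84), Ighg1 (0.693-fold, 0.288 to 1.61) and Ighd (1.45-fold, 0.724 to 2.98) did not differ beyond counting error and were not kept.

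The general level of genes was shifted in that comparison: the median over all genes kept was −0.45, and other scalings placed it between −0.40 and 0.00. The median of the members kept was 1.58. Relative to the median of all genes, 6 members in place of 5 were called higher, Ighm being the added one. The share of all genes kept that was called higher rose as well, from 4.47% to 7.7%. The irradiated cKO library also had more genes above 0 FPKM (88.9% of all identifiers, against 79.2% in irradiated wild type), and neutrophil markers were higher there (a summed level of 1134 against 375 FPKM over 4 genes). At steady state, where most members were lower in cKO, neutrophil markers were higher in cKO as well, at 2237 against 1365 FPKM. Several other marker sums changed direction between conditions as most members did. Macrophage markers were lower in cKO at steady state (265 against 872 FPKM) and higher after irradiation (887 against 495 FPKM). Erythroid markers were likewise lower (400.2 against 1076 FPKM) and then higher (9674 against 4236 FPKM). So were the plasma cell and B cell markers given below. The part of these cell types in the result was not tested.

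**Figure D4:**
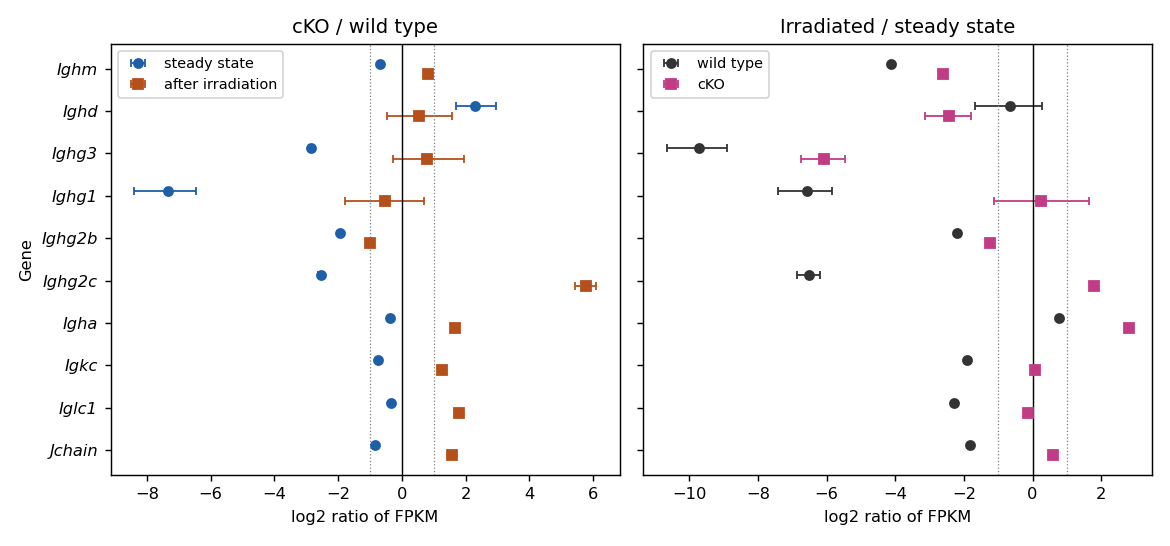
log2 ratio of FPKM for each gene with exact 95% counting intervals: cKO over wild type in each condition on the left, irradiated over steady state in each genotype on the right, and dotted lines at 2-fold. Most genes lie left of 0 at steady state and right of 0 after irradiation in the genotype panel, with Ighg2c furthest right (54.2-fold).

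The next comparison set irradiated against steady-state cells. In wild type 8 of the 9 members kept were called lower and 0 higher, beside 18.9% called lower and 18.9% called higher of 7418 genes. Besides Ighm, Ighg3 was 839-fold (480 to 1625) lower, Ighg1 95.3-fold (57.6 to 171), Ighg2c 91.2-fold (73.1 to 115), Iglc1 4.86-fold (4.74 to 4.97), Ighg2b 4.56-fold (4.41 to 4.71), Igkc 3.76-fold (3.75 to 3.78) and Jchain 3.56-fold (3.53 to 3.59). Igha, the member not called, was the one gene of the set with a higher level.

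In cKO the members went both ways. Of 8 kept, 3 were called lower (Ighm, Ighg3 and Ighg2b) and 2 higher (Ighg2c and Igha), beside 22.6% called lower and 10.3% called higher among 7393 genes, so the count of lower members was not far above that background. The call of Ighg2b (−1.21) was lost with the median of ratios (−0.96) and the upper quartile (−0.62). In those settings 17.3% and 11.9% of all genes kept were called lower. With the upper quartile Jchain (1.21) was called higher, beside 28.4% of all genes kept. Ighg3 was 67.2-fold (44.2 to 108) lower and Ighg2b 2.35-fold (2.24 to 2.47) lower, whereas Ighg2c was 3.44-fold (3.24 to 3.66) higher. Jchain was 1.53-fold (1.52 to 1.54) higher. Igkc was 1.05-fold (1.046 to 1.054) higher and Iglc1 1.09-fold (1.08 to 1.11) lower, directions that turned with scaling: −0.08 for Igkc without the 50 highest genes in the scale, and 0.13 and 0.47 for Iglc1 with the median of ratios and the upper quartile. Median differences of the members kept were −2.28 in wild type and −0.03 in cKO, beside 0.21 and −0.20 over all genes kept. The cKO median turned sign too, to 0.23 with the median of ratios, 0.57 with the upper quartile and 0.17 when centred on all genes.

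Genes of the cells that make antibody were present in each library. The 15 genes of the plasma cell programme include Xbp1, the transcription factor of the secretory state (226 and 160 FPKM at steady state, 65.5 and 106 FPKM after irradiation), Mzb1, an endoplasmic reticulum cofactor of antibody assembly (234 and 113, then 48.5 and 124 FPKM), Creld2 (205 and 142, then 132 and 126 FPKM) and Txndc5 (103 and 67.1, then 41.8 and 51.8 FPKM). In cKO against wild type 3 of 13 kept were called lower at steady state (Mzb1, Tnfrsf17 and Derl3) and 3 of 12 called higher after irradiation (Mzb1, Derl3 and Pou2af1). After irradiation 10 of 13 were called lower in wild type and 1 of 13, Tnfrsf13b, in cKO, with list medians of −1.85 and −0.23. Over all genes kept the shares called were 2.70% lower and 4.47% higher in the genotype comparisons and 18.9% and 22.6% lower after irradiation, so the cKO count of 1 lay below its background.

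Surface genes of B cells were present too. Cd79a and Cd79b, which encode the signalling chains of the B cell receptor, had levels of 91.7 and 59.1 FPKM (Cd79a) and of 90.9 and 70.7 FPKM (Cd79b) in unirradiated cells. In irradiated cells the levels were 25.4 and 57.2 FPKM for Cd79a and 17.8 and 32.8 FPKM for Cd79b. Blnk, an adaptor of the receptor, had 6.75 and 3.90 and then 2.06 and 4.33 FPKM, and the co-receptor gene Cd72 had 12.0 and 15.7 and then 0.739 and 2.57 FPKM. The other 6 of this list, among them Ms4a1, which encodes CD20 (at most 1.16 FPKM), stayed under 5 FPKM throughout. Called lower after irradiation were all 4 genes kept in wild type and 2 of 3 in cKO, beside 18.9% and 22.6% of all genes kept. In cKO against wild type 0 of 4 were called at steady state, beside 2.70% lower and 0.643% higher over all genes kept. After irradiation Cd79a alone of 2 was called in that comparison, as higher, beside 4.47% of all genes kept.

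Summed marker levels of these cell types were lowest in irradiated wild type, as those of Igkc, Iglc1 and Jchain were, and unlike those of Igha, which was lowest in steady-state cKO. Over 6 plasma cell markers they were 526 and 304 FPKM in unirradiated cells, then 125 and 252 FPKM in irradiated cells, and over 5 B cell markers 195 and 143, then 45.7 and 94.7 FPKM. None of these markers was at 0 in any library. Their part in the levels of the constant region genes was not tested.

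Genes for making antibody diversity were scarce. Rag1 and Rag2, the recombinase genes, had at most 12 and 57 reads, and Ung, a glycosylase gene of switching and base repair, at most 137 reads. Dntt, the terminal transferase gene, had 14.5 and 12.4 FPKM in unirradiated cells, then 1.51 and 1.82 FPKM in irradiated cells, and was the one gene of 5 in this list to be kept. Among the surrogate light chain genes of precursor B cells, Vpreb1 had 21.5 and 20.6 FPKM in unirradiated cells, then 11.7 and 9.004 FPKM in irradiated cells, Vpreb3 had 21.3 and 16.3, then 13.4 and 25.1 FPKM, and Igll1 had 19.7 and 16.7, then 8.05 and 11.1 FPKM. Vpreb2 had 7.25 and 5.26, then 3.79 and 4.08 FPKM. Between genotypes 0 of 4 kept were called at steady state and 0 of 3 after irradiation, where at most 4.47% of all genes kept were called in 1 direction. In each genotype 1 of 4 was called lower after irradiation (Igll1 in wild type, Vpreb1 in cKO). Over all genes kept those shares were 18.9% and 22.6%, so 1 of 4 lay near background.

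Genes for folding and export of secreted proteins are used by all cells. Of 10 genes, 0 were called between genotypes in either condition and 1, the chaperone cofactor gene Dnajb9, was called lower after irradiation in each genotype. Over all genes kept 18.9% (wild type) and 22.6% (cKO) were called lower after irradiation, so 1 of 10 lay below background. Between genotypes at most 4.47% of all genes kept were called in 1 direction, so 0 of 10 lay near background. Hspa5, the chief chaperone of the endoplasmic reticulum, had 303 and 321 FPKM in unirradiated cells, then 321 and 285 FPKM in irradiated cells. Sec61b, of the translocation channel, had 186 and 132, then 273.8 and 177 FPKM. Sec11c, a signal peptidase subunit gene, had 149 and 111, then 197 and 151 FPKM, and Pdia6, a disulphide isomerase gene, 159.5 and 144, then 159 and 132 FPKM.

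Receptors that bind the constant regions were also measured. Fcer1g, the shared signalling chain of several Fc receptors, had 327 and 175 FPKM in unirradiated cells, then 209 and 369 FPKM in irradiated cells. Fcgr3, a low-affinity IgG receptor gene of myeloid cells, had 72.0 and 32.0, then 75.9 and 133 FPKM, and Fcgrt, which encodes the neonatal Fc receptor, 97.6 and 51.8, then 48.9 and 83.9 FPKM. Of 5 genes kept, 2 were called lower in cKO at steady state (Fcgr1 and Fcgr3), beside 2.70% of all genes kept. In cKO 4 were called higher after irradiation than at steady state (Fcgr1, Fcgr3, Fcgr4 and Fcer1g), beside 10.3%. In the other comparisons 0 were called. There 18.9% of all genes kept were called lower and 18.9% higher after irradiation in wild type. Between the irradiated genotypes 1.04% were called lower and 4.47% higher. Fcgr4, another IgG receptor gene, had 12.0 and 7.32, then 17.3 and 31.7 FPKM. Macrophage markers, which belong to cells that carry these receptors, had summed levels of 872 and 265 FPKM in unirradiated cells, then 495 and 887 FPKM in irradiated cells over 4 genes, and their part was not tested. Pigr and Fcamr, which encode receptors of IgA and IgM, had at most 8 and 3 reads.

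Variable segments were measured as genes of their own. Of 119 kappa segments, 77 and 69 reached 5 FPKM without irradiation and 43 and 48 with it, and of 121 heavy chain segments 78 and 68, then 32 and 54. The most abundant kappa segment held 42.2% and 54.8% of the kappa segment FPKM without irradiation and 12.4% and 13.3% with it.

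The genes with the most similar profile over the 4 libraries were sought for Igkc, Ighm, Igha and Jchain among 5049 genes that reached 10 FPKM in some library, immunoglobulin genes left out. Likeness was the root mean square difference between log2(FPKM + 1) profiles centred on their means. For Igkc the nearest was Cd79a (0.05, against a range of 1.91 for Igkc itself), followed by Slamf7 (0.10), a surface receptor gene of plasma and NK cells, Pou2af1 (0.13), a B cell transcriptional coactivator, Mzb1 (0.13) and Xcl1 (0.15), a chemokine gene. Igkc per unit of Cd79a was 840 (813 to 869) and 780 (748 to 814) at steady state and 808 (754 to 866) and 847 (810 to 886) after irradiation. For Jchain the nearest were Xcl1 (0.11), Cd14 (0.19), Trbc2 (0.23), Cd79a (0.24) and Mzb1 (0.25).

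For Ighm the nearest were Bex1 (0.18), Adssl1 (0.20), Plxna4os1 (0.24), Prtn3 (0.24) and the T cell receptor segment Trbj1-1 (0.25), none of them in the plasma cell list, and its range of 4.11 was wider than that of Igkc. For Igha they included Trim10 (0.15), Wfdc17 (0.29), Lgals3 (0.33) and Alas2 (0.39). Alas2, whose enzyme starts haem synthesis in red cells, had 4.36 and 2.11 FPKM in unirradiated cells, then 12.7 and 37.9 FPKM in irradiated cells. Summed over 3 erythroid markers the level was 1076 and 400.2, then 4236 and 9674 FPKM, and their part in the Igha values was not tested. Plxna4os1 is an antisense gene, and whether counting used strand is not stated. Profiles of 4 libraries leave few degrees of freedom, and these distances are descriptions without a test.

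**Figure D5:**
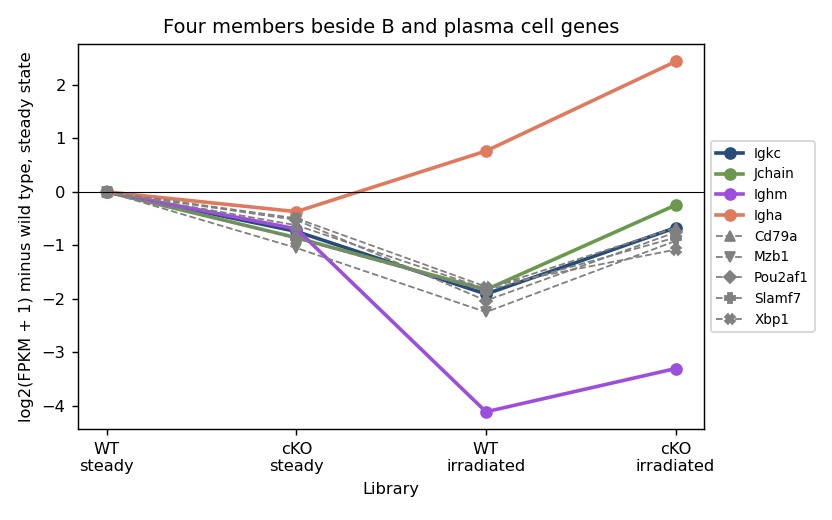
Difference in log2(FPKM + 1) from the wild-type steady-state library for 4 members (solid) and 5 genes of B and plasma cells (dashed, grey). Igkc, Jchain and the dashed genes are lowest in irradiated wild type, whereas Ighm lies below them (−4.11 in irradiated wild type) and Igha above 0 (0.76) there. Of the dashed genes, Cd79a, Slamf7, Pou2af1 and Mzb1 were the nearest to Igkc in the likeness search. Their running with Igkc therefore follows from how they were picked, and other genes of the plasma cell list are not drawn.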

How the data were processed

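The authors deposited FPKM per gene for 4 RNA-seq libraries, per the file headers; the aligner, counter and gene models of these libraries are not stated. Tools listed in the submitters' processing notes are MACS2 2.1.0, BWA 0.7.12-r1039, HOMER and Bowtie, with mm10 as the build and no roles given. The ATAC-seq samples (2) were not analysed here. Symbols matched 30231 identifiers, and 178 kept the identifier.

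Library sizes came from ratios of low values and the lengths of 12 of 13 mitochondrial genes that gave the same size. The smallest gene length making all 4 read numbers whole was taken, within 0.002 reads plus 6e-08 of the value. It was found for all 29934 genes above 0. A read number may be too small by an integer multiple. The steps were tested on data simulated from the recovered lengths, so that test cannot show whether those lengths are right. Recovered lengths ran from 454 bases (Iglc1) to 2678 (Ighg2b), so per-length shares rest on the gene models used.

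Python 3.11.15 with pandas 2.3.3 and scipy 1.17.1 was used. The members and 7 lists were chosen with earlier results of these data known. From each list, the up to 4 genes of highest mean level are named, and other listed genes where a count needs them. Procr, Hlf, Cd34, Flt3, Ly6a, Kit, Xist and Ddx3y, and Dnajb9, Rag1, Fcgr1 and other low or called genes were named after their values were seen. Likeness names up to 5 genes per member; some items are not reported here. Alternatives were pseudocounts of 0.1 and 5, minima of 1 and 20 FPKM and none, 4 scalings and other bases for the shares. Centring on the median was added after seeing the data.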

Additional observations from a re-analysis of the deposited data

Results flagged for a closer look

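For 6 members the difference between cKO and wild type pointed one way at steady state (lower in cKO) and the other way after irradiation (higher in cKO), beyond counting error in both. The second difference minus the first, on the log2(FPKM + 1) scale, was 7.82 for Ighg2c, 2.44 for Jchain, 2.15 for Iglc1, 2.04 for Igha, 1.98 for Igkc and 1.501 for Ighm. For Ighg2c (7.82), Jchain (2.44) and Igkc (1.98) the difference between irradiated and steady-state libraries also pointed opposite ways, lower in wild type and higher in cKO; it is the same contrast seen from the other side, and for Igkc the small cKO value turned sign with scaling. The share of all genes whose genotype difference turned from lower to higher was not counted. Of the 6 members, Ighg2c alone was called in both conditions. Summed macrophage and erythroid markers also went from lower to higher in cKO. Each result rests on 1 library per group, and the differences were not tested.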

How the results depend on the processing

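Of 80 member counts under other settings, 77 stayed within 1.5 times the reported count. In the exceptions, 1 member (Ighd) was called higher in steady-state cKO in place of 0 at a minimum of 1 FPKM or none. There 1.04% and 0.414% of all kept genes were called higher. With the upper quartile 1 (Igha) was called higher in irradiated wild type in place of 0 (1.31), where 40% of all kept genes were called higher. Within that tolerance Ighg2b lost its lower call between the cKO libraries with the median of ratios and the upper quartile. There Jchain gained a higher call with the upper quartile (1.21), beside 28.4% of all kept genes called higher. Between the same libraries Ighd gained a lower call (−1.32) at a minimum of 1 FPKM or none, beside 20.2% and 8.81% called lower. Ighm gained a higher call in irradiated cKO against wild type without the 50 highest genes (1.20), with reads outside immunoglobulin genes (1.28) or centred (1.26). In these settings 7.65%, 8.4% and 7.7% of all kept genes were called higher. Of 40 medians of the members 3 changed sign, all between the cKO libraries. Of 330 single differences under other settings, 4 changed sign, all of Igkc or Iglc1 between the cKO libraries, and none that was called. By recovered reads in place of FPKM, the IgM and IgD share was 89.1% (wild type) and 89.2% (cKO) without irradiation and 27.3% and 17.2% with it, and the IgA share 7.86%, 9.84%, 70.9% and 81.8% in the same order; adding Ighe moved neither beyond counting error. With all lambda genes the lambda share was 7.78%, 7.87%, 6.05% and 6.24%. Jchain per 100 FPKM of Ighm and Igha alone was 17.8, 15.7, 32.5 and 36.3. That base keeps Ighm. A Jchain ratio without Ighm was not computed, but by the levels given above its order of conditions turns too. Igkc per 100 FPKM of heavy chain without Ighm was 2863, 3119, 704 and 525, so the order of conditions for that ratio turned when Ighm was left out, as the removal of the main steady-state gene makes it. No paired analysis was possible because each group held 1 library. Depth limits statements on Ighd, Ighe, and Ighg1 and Ighg3 after irradiation, each with 133 reads or fewer per library. It also limits Ighg1 in steady-state cKO (10 reads) and Ighg2c in irradiated wild type (79 reads). The largest genotype fold of each condition rests on these low values.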
